A study of Homo sapiens with 12 samples.

Results

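The interleukin-1 (IL-1) and interleukin-36 (IL-36) cytokines were followed here through 9 genes in the human keratinocyte line HaCaT, which is immortalised: the agonists IL1A, IL1B, IL36A, IL36B, IL36G, IL18 and IL33, and the receptor antagonists IL1RN and IL36RN. They were chosen by symbol among the 58735 genes of an expression table, and each symbol had a single identifier. Values are in FPKM (fragments scaled to gene length and to a common scale between libraries whose formula is not stated). The cells came in 4 groups of 3 libraries. PHGDH-siRNA+Mix cells received siRNA against PHGDH and then a stimulus called mix for 24 h, PHGDH-siRNA cells received that siRNA alone, Control-siRNA+Mix cells received control siRNA and mix, and Control-siRNA cells received control siRNA alone. All groups thus share transfection and a single cell line, and no untransfected cells were analysed here. The composition of the mix, the siRNA sequences and the origin of the replicates (separate cultures or not) are not stated in the sources used here, so the p-values below describe library-to-library spread and nothing wider.

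IL-1α and IL-1β bind the IL-1 receptor, IL-36α, β and γ bind the IL-36 receptor, and both receptors pair with the accessory protein IL-1RAP and signal through MyD88 to NF-κB and MAP kinases. The antagonists encoded by IL1RN and IL36RN occupy these receptors without starting a signal, and loss of IL36RN in people causes generalised pustular psoriasis. Most of these cytokines are made without a classical secretion signal as precursors that proteases must cut (IL-1β and IL-18 by caspase-1, IL-36 cytokines by cathepsin S and neutrophil proteases), and IL-36γ is a cytokine of keratinocytes that is abundant in psoriatic epidermis.

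The libraries held between 16403845 and 20901128 recovered reads. PHGDH, which encodes the first enzyme of serine synthesis, measured 11.5 to 19.1 FPKM in PHGDH-siRNA+Mix against 26.6 to 31.9 in Control-siRNA+Mix, and 16.9 to 23.7 FPKM in PHGDH-siRNA against 36.5 to 56.2 in Control-siRNA. Its groups did not overlap, but the change passed the test in neither comparison (limma adjusted p = 0.200 with mix and 0.128 without). Averaged over both mix conditions PHGDH was called down (log2 fold change -1.08, SE 0.146, adjusted p = 0.0197), a call lost with no low genes filtered out (adjusted p = 0.0560), with same-numbered libraries averaged (adjusted p = 0.450) and without 6 of the 12 libraries, each left out in turn (adjusted p = 0.0614 to 0.0935). Replicate 2 of PHGDH-siRNA+Mix and replicate 2 of PHGDH-siRNA stood apart from the other libraries of their groups, and results are given with and without this pair where it matters. Replicate 1 of Control-siRNA also stood apart (chi-square per gene of 77.9 and 48.1 against the others of its group, which differed by 11.7), with a mitochondrial share of 7.08% of reads against 4.84% and 4.74%. Without it the calls of CASP1 and RELA with mix under control siRNA and of IL36RN in the average over mix, all described below, were lost. The CASP1 and RELA calls were lost in the same way without any other single library of the control arm. All 6 keratinocyte markers were present, with summed levels of 2588 to 5553 FPKM in PHGDH-siRNA+Mix, 1372 to 5353 in PHGDH-siRNA, 2816 to 2969 in Control-siRNA+Mix and 1303 to 1855 in Control-siRNA. Of 8 leukocyte markers, CD14 alone exceeded a group mean of 1 FPKM. PTPRC and CD207 were at 0 in every library, and the 8 markers summed to 0.302 to 2.31 FPKM in PHGDH-siRNA+Mix, 0.0774 to 2.93 in PHGDH-siRNA, 2.11 to 2.99 in Control-siRNA+Mix and 1.51 to 1.89 in Control-siRNA. Fibroblast, melanocyte and endothelial markers summed to at most 2.11, 1.21 and 0.975 FPKM in any library.

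Without mix, the family was a modest part of the transcriptome and IL18 led it. In Control-siRNA cells IL18 averaged 23.0 ± 4.0 FPKM, IL1B 18.6 ± 1.92, IL1RN 13.2 ± 0.557 and IL1A 10.6 ± 3.26 (SD, n = 3 each). IL36RN followed at 0.774 ± 0.0445 and IL36G at 0.363 ± 0.293 FPKM. In this order the libraries of IL18 and IL1B overlapped, as did those of IL1RN and IL1A, whereas IL1B lay above IL1RN, IL1A above IL36RN and IL36RN above IL36G in every library. PHGDH-siRNA cells held IL18 at 29.5 ± 3.66 FPKM, IL1B at 27.2 ± 8.96, IL1A at 20.6 ± 8.05, IL1RN at 13.1 ± 4.99, IL36G at 2.65 ± 2.34 and IL36RN at 1.45 ± 0.181. There the first 3 overlapped among themselves, and IL1A and IL1RN and then IL36G and IL36RN overlapped as well. IL36B, IL33 and IL36A stayed under 0.1 FPKM on average in both groups without mix.

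With mix, the 2 IL-1 agonists moved to the top of the family. IL1B averaged 327 ± 231 FPKM in PHGDH-siRNA+Mix and 336 ± 13.6 in Control-siRNA+Mix, places 122 and 119 among the 14577 genes tested. IL1A averaged 255 ± 118 FPKM in PHGDH-siRNA+Mix and 266 ± 11.8 in Control-siRNA+Mix, places 160 and 161. IL36G came next in both (84.0 ± 32.5 FPKM in PHGDH-siRNA+Mix, 31.1 ± 3.5 in Control-siRNA+Mix), then IL18 (29.9 ± 6.03 and 20.8 ± 1.53 in the same groups), IL1RN (15.99 ± 3.77 and 10.7 ± 0.433) and IL36RN (1.82 ± 0.419 and 0.880 ± 0.0407). In Control-siRNA+Mix each of these genes lay above the next in every library. In PHGDH-siRNA+Mix the ranges of IL1B and IL1A overlapped, and no other neighbours in the order did. Together IL1A and IL1B made up 79.4 ± 5.78% of the summed FPKM of the 9 genes in PHGDH-siRNA+Mix and 50.1 ± 10.4% in PHGDH-siRNA. They made up 90.4 ± 0.131% in Control-siRNA+Mix and 43.8 ± 3.98% in Control-siRNA.

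**Figure D1:**
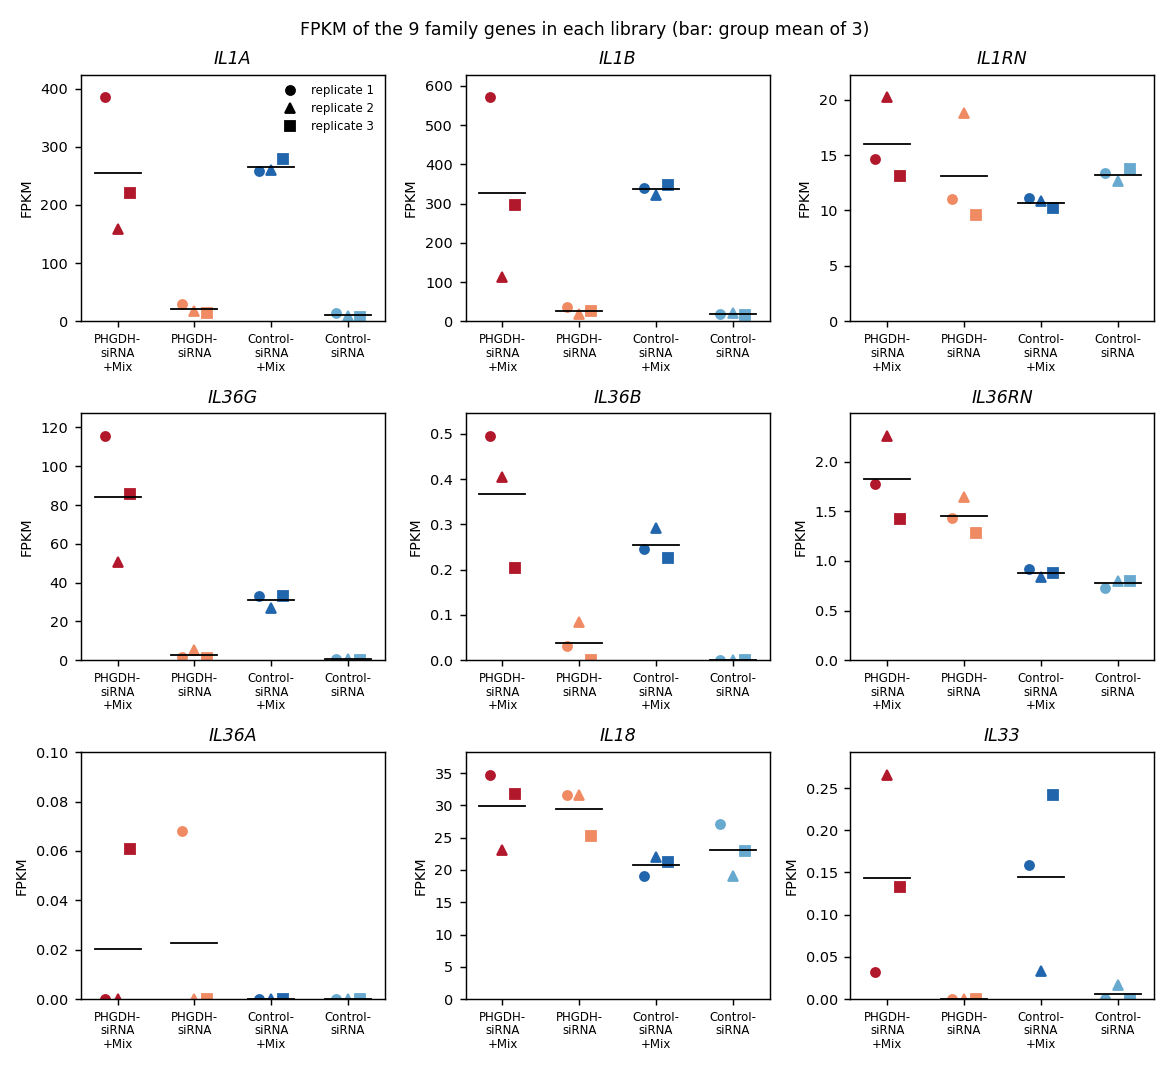
FPKM (vertical axis, a separate linear scale per gene, each starting at 0) of the 9 genes in each of the 12 libraries, with the marker shape giving the replicate and the bar the mean of 3. IL1A, IL1B and IL36G are high in both groups with mix, the Control-siRNA+Mix libraries lie close together, and the PHGDH-siRNA+Mix libraries spread widely, with replicate 2 lowest for these 3 genes.

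Mix against no mix asked which family genes respond to the stimulus, in each siRNA arm. Differences are limma log2 fold changes of FPKM + 1 with their standard error (SE), and a gene was called at an adjusted p under 0.05 over the 14577 genes tested, those reaching a mean of 0.5 FPKM in any group. Of the 9 family genes, 6 passed that filter. IL1A, IL1B and IL36G rose with mix in both arms, and IL18, IL1RN and IL36RN were called in neither. These were 3 of 6 tested members, where 8.86% of all genes tested were called under PHGDH siRNA (5.22% upward) and 9.54% under control siRNA (5.62% upward). The median change of the 6 was 1.80 under PHGDH siRNA and 2.10 under control siRNA, against 0.00 for all genes in both. In bulk libraries, more RNA per cell and a larger share of expressing cells cannot be told apart.

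IL1A (ENSG00000115008, hg38 chromosome 2, 112773915 to 112784590, minus strand) encodes IL-1α, an alarmin that keratinocytes store and release on injury. Its 3 PHGDH-siRNA+Mix values were 386, 158 and 220 FPKM, against 29.9, 17.1 and 15 in PHGDH-siRNA. Its Control-siRNA+Mix values were 259, 259 and 279 FPKM, against 14.1, 9.82 and 7.75 in Control-siRNA. Every library with mix lay above every library without it. The ratio of mean FPKM was 12.3 under PHGDH siRNA (log2 fold change 3.52, SE 0.333, limma adjusted p = 0.000108) and 25.1 under control siRNA (4.56, SE 0.333, adjusted p = 1.13e-05).

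IL1B (ENSG00000125538, chromosome 2, 112829751 to 112836903, minus strand) encodes IL-1β, the inflammasome-processed agonist. It measured 572, 112 and 297 FPKM in PHGDH-siRNA+Mix against 37.0, 19.4 and 25.3 in PHGDH-siRNA, and 340, 321 and 348 FPKM in Control-siRNA+Mix against 17.6, 20.8 and 17.3 in Control-siRNA. Again no library with mix fell among those without. The ratio of means was 12 under PHGDH siRNA (3.30, SE 0.453, adjusted p = 0.00121) and 18.1 under control siRNA (4.11, SE 0.453, adjusted p = 0.000213). In a fit of the 2 PHGDH-siRNA groups alone the IL1B call was lost (adjusted p = 0.0514).

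IL36G (ENSG00000136688, chromosome 2, 112973203 to 112985665, plus strand), the gene of IL-36γ, showed the steepest rise of the family. Values in PHGDH-siRNA+Mix were 116, 50.8 and 85.6 FPKM, against 1.66, 5.33 and 0.971 in PHGDH-siRNA. Values in Control-siRNA+Mix were 33.1, 27.0 and 33.1 FPKM, against 0.442, 0.608 and 0.0384 in Control-siRNA, where the 3 libraries together had 27 reads. Libraries with and without mix did not overlap in either arm. The ratio of means was 31.7 under PHGDH siRNA (4.65, SE 0.399, adjusted p = 5.41e-05) and 85.7 under control siRNA (4.58, SE 0.399, adjusted p = 4.12e-05). Adding 1 to FPKM compresses changes that start below 1 FPKM, so the log2 values understate the rise most in the control arm. A processed pseudogene on the opposite strand, HMGN2P23, lies within IL36G and reached a group mean of 0.590 FPKM. Whether counting used strand is not given in the sources used here, so reads over this overlap are uncertain.

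Because these 3 cytokines rose together and lie on the same stretch of chromosome 2, their RefSeq promoter windows (GRCh38.p14, 250 bases before to 50 after the RefSeq start site, read 5′ to 3′ on the gene's strand) are shown, with motif matches in capitals. The windows are chr2:112784444-112784743 (minus strand) for IL1A, chr2:112836730-112837029 (minus strand) for IL1B and chr2:112977756-112978055 (plus strand) for IL36G.

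IL1A: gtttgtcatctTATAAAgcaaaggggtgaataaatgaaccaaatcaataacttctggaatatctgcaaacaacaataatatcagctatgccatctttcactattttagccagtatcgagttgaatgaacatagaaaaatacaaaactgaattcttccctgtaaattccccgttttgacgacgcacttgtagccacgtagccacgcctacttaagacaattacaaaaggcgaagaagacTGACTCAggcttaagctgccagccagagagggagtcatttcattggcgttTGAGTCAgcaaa
IL1B: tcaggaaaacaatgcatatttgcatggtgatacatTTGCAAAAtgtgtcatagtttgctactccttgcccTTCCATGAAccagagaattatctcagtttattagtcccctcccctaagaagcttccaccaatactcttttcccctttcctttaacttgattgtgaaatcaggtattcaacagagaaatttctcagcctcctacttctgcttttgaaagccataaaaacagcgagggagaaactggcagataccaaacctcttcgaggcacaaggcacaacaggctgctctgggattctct
IL36G: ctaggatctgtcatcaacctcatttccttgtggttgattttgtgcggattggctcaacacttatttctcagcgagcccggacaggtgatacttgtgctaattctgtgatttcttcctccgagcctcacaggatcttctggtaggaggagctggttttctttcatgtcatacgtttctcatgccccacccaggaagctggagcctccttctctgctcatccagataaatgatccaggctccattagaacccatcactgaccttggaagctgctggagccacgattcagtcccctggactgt

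The motifs searched on both strands were κB, bound by NF-κB (GGG, any 5 bases, then CC), the AP-1 motif TGANTCA, the C/EBP motif TTGCNNAA, the STAT motif TTCNNNGAA and the TATA box TATAAA, without overlap between matches of different motifs in these 3 windows. The IL1A window held the AP-1 motif as TGACTCA from base -12 and as TGAGTCA from base 38, with the start site as base 0. It also held the letters TATAAA from base -239, far from the start site, which is a match of letters only. The IL1B window held the C/EBP motif TTGCAAAA from base -215 and the STAT motif TTCCATGAA from base -180. The IL36G window held none of the 5, and its RefSeq start site lies 4803 bases from the start of the gene in the table. Of 35116 promoter windows, 58.7% held the κB letters, 7.71% AP-1, 10.5% C/EBP, 7.66% STAT and 11.5% TATA. RefSeq windows were found for 7 of the 9 family genes.

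IL36B and IL36A, the genes of IL-36β and IL-36α, were near the limit of detection and were not tested. IL36B (ENSG00000136696, chromosome 2, 113022091 to 113052867, minus strand) had 0.495, 0.405 and 0.203 FPKM in PHGDH-siRNA+Mix, against 0.0323, 0.0837 and 0 in PHGDH-siRNA. It had 0.246, 0.291 and 0.225 FPKM in Control-siRNA+Mix, against 0 in all 3 Control-siRNA libraries. Summed over 3 libraries, these were 39 reads (95% Poisson interval 27.7 to 53.3, counting error only) against 4 (1.09 to 10.2) under PHGDH siRNA, and 26 (17.0 to 38.1) against 0 under control siRNA. The ratio of mean FPKM under PHGDH siRNA was 9.51, and the ratio of reads had a counting interval of 3.17 to 33.8. A sum of 0 reads allows up to 3 reads in the group, or 0.0293 FPKM, and the mean with mix under control siRNA was 8.66 times that floor. With counting error in both groups, the ratio of reads had an exact 95% lower limit of 6.23. IL36B thus had reads in all 6 libraries with mix, yet its mean in Control-siRNA+Mix was 0.254 FPKM where IL36G had 31.1. IL36A (ENSG00000136694, chromosome 2, 113005461 to 113008044, plus strand) had 1 read in PHGDH-siRNA+Mix, 1 in PHGDH-siRNA and none in either control group, which allows up to 0.0617 FPKM in each of these.

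The 2 alarmin-like agonists outside the cluster behaved differently from each other. IL18 (ENSG00000150782, chromosome 11, 112143251 to 112164117, minus strand), whose precursor keratinocytes hold constitutively, measured 34.8, 23.1 and 31.7 FPKM in PHGDH-siRNA+Mix against 31.7, 31.6 and 25.3 in PHGDH-siRNA. It measured 19.1, 22.1 and 21.3 FPKM in Control-siRNA+Mix against 27.1, 19.1 and 22.9 in Control-siRNA. The groups overlapped in both arms. AP002884.3, a gene on the opposite strand that overlaps IL18, was listed at 0 in every group. The estimated change was 0.00 under PHGDH siRNA (95% interval -0.38 to 0.39, adjusted p = 0.998) and -0.13 under control siRNA (-0.51 to 0.26, adjusted p = 0.758). IL33 (ENSG00000137033, chromosome 9, 6215786 to 6257983, plus strand), a nuclear alarmin that acts on the ST2 receptor, was found almost exclusively in cells with mix. It had 2, 16 and 8 reads in PHGDH-siRNA+Mix and none in PHGDH-siRNA, and 9, 2 and 15 reads in Control-siRNA+Mix against 0, 1 and 0 in Control-siRNA. Its mean was 0.143 FPKM in PHGDH-siRNA+Mix and 0.145 in Control-siRNA+Mix, too low for the filter, so no test was made.

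Neither antagonist was called with mix in the fit of all libraries, in either arm. IL1RN (ENSG00000136689, chromosome 2, 113107214 to 113134016, plus strand) measured 14.6, 20.2 and 13.1 FPKM in PHGDH-siRNA+Mix against 11.0, 18.8 and 9.59 in PHGDH-siRNA. It measured 11.1, 10.8 and 10.2 FPKM in Control-siRNA+Mix against 13.4, 12.6 and 13.7 in Control-siRNA. The PHGDH-siRNA groups overlapped, and the control groups did not. The change with mix was 0.30 under PHGDH siRNA (SE 0.217, adjusted p = 0.481) and -0.28 under control siRNA (SE 0.217, adjusted p = 0.529). The same-numbered libraries of the PHGDH-siRNA arm deviated together over all genes, and with the replicate as a block in that arm IL1RN was called up with mix at the same estimate (0.30, adjusted p = 0.0298). Without replicate 2 of both PHGDH-siRNA groups it was called up under PHGDH siRNA (0.40, adjusted p = 0.0319) and down under control siRNA (-0.28, adjusted p = 0.0443). The fit with the block called 22.5% of all genes. The fit without the pair called 15.1% under PHGDH siRNA and 20.8% under control siRNA, against 8.86% and 9.54% with all libraries. The control libraries and their estimate did not change, so the downward call was gained by the fit alone. The difference between the arms, tested as the interaction, was 0.58 (SE 0.308, adjusted p = 1.00). It was not called with the block in the PHGDH-siRNA arm (adjusted p = 0.388) or without the pair (adjusted p = 0.578) either.

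IL36RN (ENSG00000136695, chromosome 2, 113058638 to 113065382, plus strand) measured 1.78, 2.26 and 1.43 FPKM in PHGDH-siRNA+Mix against 1.43, 1.64 and 1.28 in PHGDH-siRNA. It measured 0.922, 0.841 and 0.876 FPKM in Control-siRNA+Mix against 0.723, 0.797 and 0.802 in Control-siRNA. The control groups did not overlap, although the change was small and not called (0.08, SE 0.123, adjusted p = 0.780). Under PHGDH siRNA the groups touched and the change was 0.19 (SE 0.123, adjusted p = 0.405). Counting all 6 tested genes, libraries with and without mix did not overlap for 3 upward under PHGDH siRNA (11.3% of all genes) and for 4 upward and 1 downward under control siRNA (19.1% and 18.7% of all genes).

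**Figure D2:**
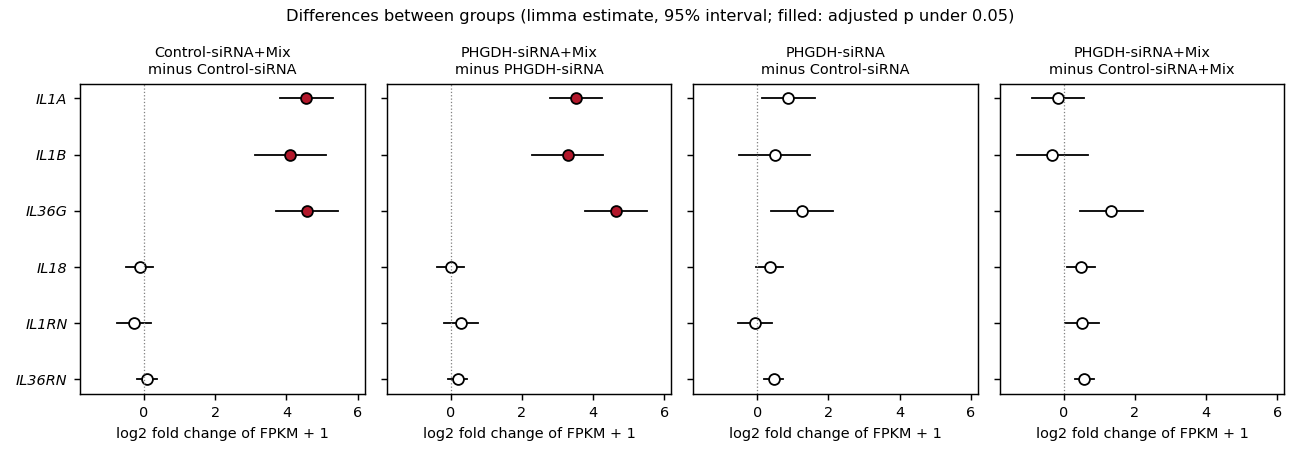
Log2 fold change of FPKM + 1 (horizontal axis) with its 95% interval for the 6 tested genes in 4 comparisons, filled where the limma adjusted p is under 0.05. IL1A, IL1B and IL36G lie between 3.30 and 4.65 in both comparisons of mix with no mix, and no gene is filled in either comparison of PHGDH siRNA with control siRNA.

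Agonist transcripts were therefore set against antagonist transcripts within each library, as a description. The FPKM of IL1A and IL1B together was 65.5, 13.3 and 39.5 times that of IL1RN in PHGDH-siRNA+Mix, against 6.08, 1.94 and 4.20 times in PHGDH-siRNA. It was 54.0, 53.6 and 61.2 times that of IL1RN in Control-siRNA+Mix, against 2.38, 2.42 and 1.82 times in Control-siRNA. IL-1 agonist transcripts outnumbered the antagonist in every library, per unit of length, and by the smallest factor with mix in replicate 2 of PHGDH-siRNA+Mix. The FPKM of IL36A, IL36B and IL36G together was 65.3, 22.6 and 60.2 times that of IL36RN in PHGDH-siRNA+Mix, against 1.23, 3.29 and 0.757 times in PHGDH-siRNA. It was 36.2, 32.5 and 38.1 times that of IL36RN in Control-siRNA+Mix, against 0.612, 0.763 and 0.0478 times in Control-siRNA. The IL-36 antagonist was thus the more abundant transcript in all 3 Control-siRNA libraries and, per unit of length, in 1 of the PHGDH-siRNA libraries (in 2 of 3 by reads), and the less abundant in all 6 with mix. IL1RN also has an intracellular form, and gene-level values do not separate it from the secreted form.

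**Figure D3:**
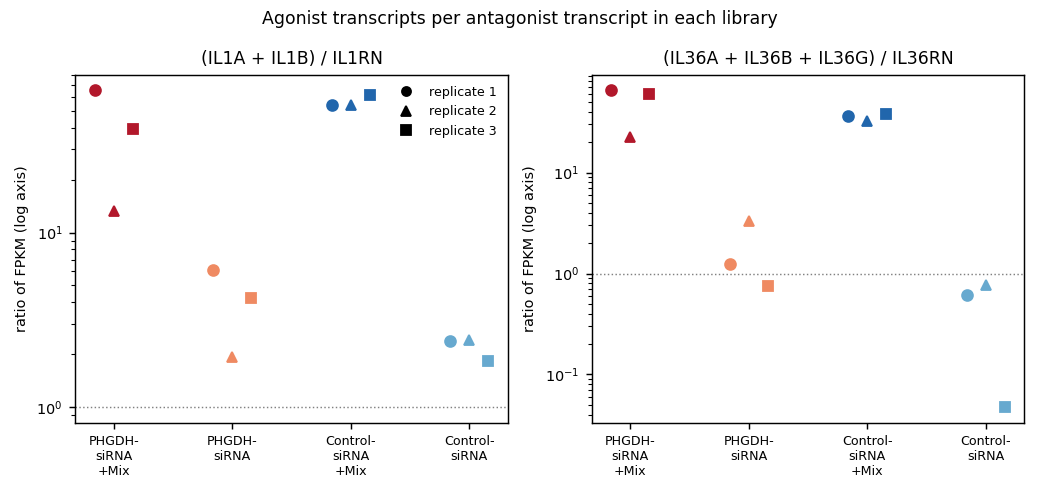
Ratio of summed agonist FPKM to antagonist FPKM in each library (log axis), for the IL-1 pair at left and the IL-36 genes at right, with the dotted line at equal levels. The IL-36 ratio lies between 22.6 and 65.3 with mix and between 0.0478 and 3.29 without mix.

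PHGDH siRNA against control siRNA asked whether siRNA against PHGDH changes the family, with and without the stimulus. These comparisons use the same groups as the mix comparisons and are not independent of them. No family gene was called in either, where 0.0206% of all genes were called with mix and 0.0412% without. At an unadjusted p under 0.05 there were 834 genes (5.72%) with mix and 935 (6.41%) without, and the family genes under it were IL36G, IL36RN, IL18 and IL1RN with mix and IL36RN, IL36G and IL1A without. With mix, 4 of 6 tested members (IL36G, IL18, IL1RN and IL36RN) were higher under PHGDH siRNA with no overlap between groups, where 7.01% of all genes were. Without mix, 3 of 6 (IL1A, IL36G and IL36RN) were, where 4.89% of all genes were. The median change of the 6 was 0.50 with mix and 0.48 without, against 0.00 and 0.01 for all genes.

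IL36G was the family gene with the largest estimated difference between the siRNA arms. PHGDH-siRNA+Mix libraries held 116, 50.8 and 85.6 FPKM against 33.1, 27.0 and 33.1 in Control-siRNA+Mix, a ratio of means of 2.70 (log2 fold change 1.33, SE 0.399, adjusted p = 0.591). It ranked 8 of 14577 genes by size of increase with mix and 15 without mix, where the ratio of means was 7.31 (1.26, SE 0.399, adjusted p = 0.512). Without replicate 2 of both PHGDH-siRNA groups the difference with mix was called (1.65, adjusted p = 0.0272), where 0.379% of all genes were, against 0.0206% with all libraries. Replicate 2 was the lowest PHGDH-siRNA+Mix library for IL36G, so leaving it out raised this estimate. Averaged over both mix conditions the difference was 1.30 (SE 0.282, adjusted p = 0.0912). It was called without that pair (1.21, adjusted p = 0.00718), where 3.39% of all genes were, against 0.487% with all libraries. The mean without mix rests on replicate 2 of PHGDH-siRNA, at 5.33 FPKM, and the other libraries of the group held 1.66 and 0.971 FPKM against 0.0384 to 0.608 in Control-siRNA.

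IL36RN differed by less but with a smaller spread. It averaged 1.82 ± 0.419 FPKM in PHGDH-siRNA+Mix and 0.880 ± 0.0407 in Control-siRNA+Mix (0.58, SE 0.123, adjusted p = 0.248). It averaged 1.45 ± 0.181 FPKM in PHGDH-siRNA and 0.774 ± 0.0445 in Control-siRNA (0.46, SE 0.123, adjusted p = 0.369). All 6 PHGDH-siRNA libraries, at 1.28 to 2.26 FPKM, lay above all 6 control libraries, at 0.723 to 0.922. The share of all genes that separate in this way was not counted. Same-numbered libraries of the PHGDH-siRNA arm deviated together, so the 6 are not independent and the separation is a description only. Averaged over both mix conditions IL36RN rose by 0.52 (SE 0.0872, adjusted p = 0.0307), the only family gene called in this contrast, which called 0.487% of all genes. The call did not hold with same-numbered libraries averaged (adjusted p = 0.603), with a replicate block (adjusted p = 0.0582) or with no low genes filtered out (adjusted p = 0.0862), and over fits leaving out a library its adjusted p was 0.0330 to 0.122.

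No IL-1 agonist was called between the siRNA arms, and the genes were not tested against each other. IL1A averaged 255 ± 118 FPKM in PHGDH-siRNA+Mix against 266 ± 11.8 in Control-siRNA+Mix (-0.16, 95% interval -0.89 to 0.57, adjusted p = 0.979). Without mix it averaged 20.6 ± 8.05 FPKM in PHGDH-siRNA against 10.6 ± 3.26 in Control-siRNA, and the groups did not overlap (0.88, SE 0.333, adjusted p = 0.670). IL1B averaged 327 ± 231 FPKM in PHGDH-siRNA+Mix against 336 ± 13.6 in Control-siRNA+Mix (-0.33, 95% interval -1.33 to 0.67, adjusted p = 0.979), and without mix the groups overlapped (0.49, adjusted p = 0.988). Without replicate 2 of both PHGDH-siRNA groups the estimates with mix were 0.13 for IL1A and 0.29 for IL1B, so their sign rests on that replicate. IL18 was 1.43 times as high in PHGDH-siRNA+Mix as in Control-siRNA+Mix by mean FPKM (0.48, SE 0.174, adjusted p = 0.736), with no overlap. IL1RN was 1.49 times as high in that comparison, also with no overlap (0.51, SE 0.217, adjusted p = 0.832).

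The mix response did not differ detectably between the siRNA arms for any family gene. The interaction (PHGDH-siRNA arm minus control arm in the size of the mix effect) called 0 of 14577 genes by limma, with 250 genes (1.72%) at an unadjusted p under 0.05. Its estimates were -1.04 for IL1A (95% interval -2.08 to -0.00), -0.82 for IL1B (-2.23 to 0.60), 0.07 for IL36G (-1.17 to 1.32), 0.13 for IL18 (-0.41 to 0.68), 0.58 for IL1RN (-0.10 to 1.26) and 0.11 for IL36RN (-0.27 to 0.49). The IL36G estimate depends on the scale, since it was -1.17 with 0.1 in place of 1 added to FPKM and -1.69 by voom on recovered reads, neither called. These intervals leave room for differences of more than 1 log2 unit in 4 of the 6 genes.

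In replicate 2 of PHGDH-siRNA+Mix the 4 tested agonists were low and the antagonists high. This library was the lowest of 3 for IL1B (-1.87 against the mean of replicates 1 and 3, log2 scale), IL36G (-0.96), IL1A (-0.88) and IL18 (-0.50), and the highest for IL1RN (0.52) and IL36RN (0.33). The untested IL33 had its most reads there, and IL36B lay between the other libraries. In PHGDH-siRNA, replicate 2 was again the lowest for IL1B (-0.63) and the highest for IL1RN (0.82) and IL36RN (0.17), whereas for IL36G it was the highest (1.46). In the control arm, replicate 2 deviated by at most 0.39 for any of these 6 genes. IL37, a non-member in the same cluster whose product dampens inflammation, deviated by -3.45 in PHGDH-siRNA+Mix, more than any family gene there, and by -1.01 in PHGDH-siRNA.

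**Figure D4:**
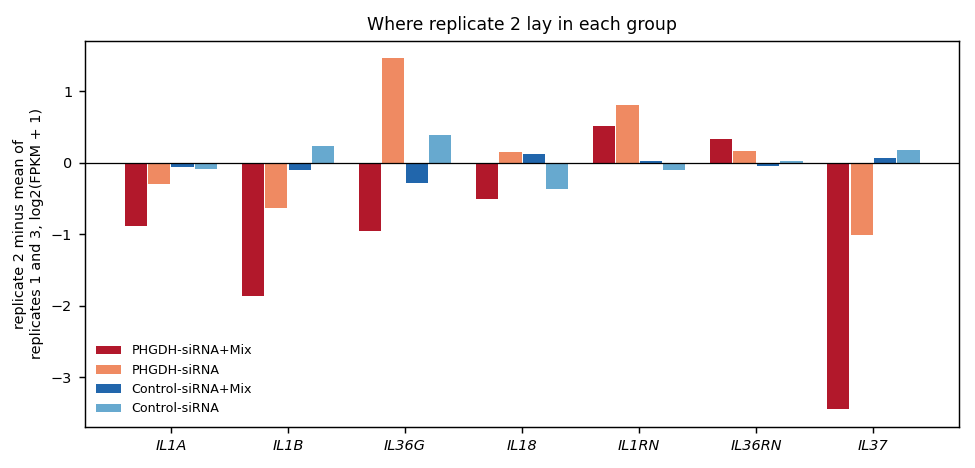
Deviation of replicate 2 from the mean of replicates 1 and 3, in log2(FPKM + 1), for the 6 tested family genes and IL37 in each group. The bars of the PHGDH-siRNA groups reach from -3.45 to 1.46, and those of the control groups stay within 0.39 of 0.

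Between IL1A and IL1RN, chromosome 2 holds 15 annotated genes, 9 of them coding for IL-1 family proteins, and mix did not move them as a block. In order along the chromosome, IL1A, IL1B, IL37 and IL36G had high levels with mix, IL36A, IL36B, IL36RN and IL1F10 had low levels in every group, and IL1RN at the far end had a middle level in every group. IL37 measured 24.5, 0.902 and 15.9 FPKM in PHGDH-siRNA+Mix against 1.58, 0.0621 and 0.767 in PHGDH-siRNA. It measured 16.4, 14.7 and 11.9 FPKM in Control-siRNA+Mix against 0.529, 0.600 and 0.315 in Control-siRNA. It rose with mix under control siRNA (3.36, adjusted p = 0.0175), a call lost when no low genes were filtered out (adjusted p = 0.0563) and by voom on recovered reads (adjusted p = 0.0636). Leaving out any library of the control arm but Control-siRNA replicate 1 also ended that call, at adjusted p of 0.0514 to 0.0677. Under PHGDH siRNA it was called with the replicate block in that arm (2.47, adjusted p = 0.00257) and without the pair (3.28, adjusted p = 4.99e-05), but not with all libraries and no block (2.47, adjusted p = 0.0700). Those fits called 22.5%, 15.1% and 8.86% of all genes, in that order. IL1F10, which encodes IL-38, had at most 0.139 FPKM as a group mean and was not tested.

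**Figure D5:**
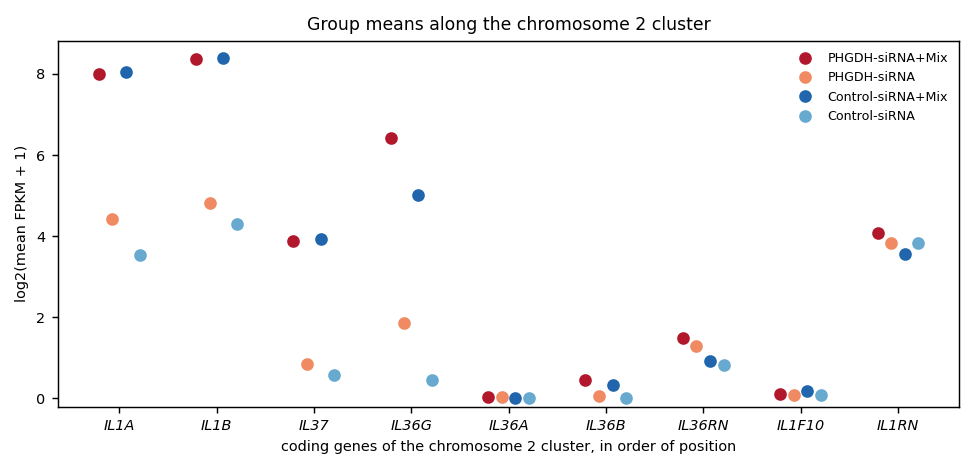
Group means as log2(mean FPKM + 1) of the 9 coding genes of the chromosome 2 cluster, in order of position. The groups with mix lie above those without for IL1A, IL1B, IL37 and IL36G, and the 4 groups lie close together for IL1RN at the right end.

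The receptors that read these cytokines were described through a list of 9, of which 8 were tested. IL1R1, the signalling IL-1 receptor, and IL1R2, a decoy that binds IL-1 without signalling, rose with mix in both arms under every alternative tried. These were 2 of 8, where 5.22% of all genes rose under PHGDH siRNA and 5.62% under control siRNA. The other 6 were called in neither arm with all libraries and no block. With the replicate block in the PHGDH-siRNA arm IL1RAP, IL1RL1 and IL18R1 were called up as well, 5 of 8 in all. That fit called 22.5% of all genes (12.1% upward). IL1RL1 passed the filter through PHGDH-siRNA+Mix alone, so the filter set the direction of its change under PHGDH siRNA. IL1R2 averaged 38.1 ± 16.4 FPKM in PHGDH-siRNA+Mix against 1.62 ± 0.185 in PHGDH-siRNA (3.82, adjusted p = 5.16e-06), and 22.0 ± 1.14 FPKM in Control-siRNA+Mix against 0.689 ± 0.331 in Control-siRNA (3.79, adjusted p = 3.74e-06). IL1R1 averaged 2.54 ± 0.190 FPKM in PHGDH-siRNA+Mix against 0.566 ± 0.146 in PHGDH-siRNA (1.18, adjusted p = 0.000121), and 1.82 ± 0.144 FPKM in Control-siRNA+Mix against 0.532 ± 0.120 in Control-siRNA (0.88, adjusted p = 0.000662). The IL-36 receptor gene IL1RL2 was at 0.772 ± 0.276 FPKM in PHGDH-siRNA+Mix and 1.11 ± 0.279 in PHGDH-siRNA (adjusted p = 0.374), and at 0.807 ± 0.227 FPKM in Control-siRNA+Mix and 1.08 ± 0.133 in Control-siRNA (adjusted p = 0.488). The decoy thus had far more transcript with mix than the signalling IL-1 receptor, per unit of length, in both arms. The median change of the 8 was 0.43 under PHGDH siRNA and 0.29 under control siRNA, against 0.00 for all genes in both.

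Of 19 genes for processing and release, 13 were tested and 5 rose with mix in both arms: CTSS, NLRP1, GSDME, CASP4 and CASP1, where 5.22% of all genes rose under PHGDH siRNA and 5.62% under control siRNA. CTSS, the gene of cathepsin S, which cuts IL-36γ, averaged 12.2 ± 4.61 FPKM in PHGDH-siRNA+Mix against 1.88 ± 0.206 in PHGDH-siRNA (2.13, adjusted p = 0.000227), and 15.2 ± 0.660 FPKM in Control-siRNA+Mix against 2.17 ± 0.337 in Control-siRNA (2.36, adjusted p = 8.52e-05). NLRP1, the inflammasome sensor of human keratinocytes, averaged 3.94 ± 1.29 FPKM in PHGDH-siRNA+Mix against 1.12 ± 0.354 in PHGDH-siRNA (1.20, adjusted p = 0.00229), and 3.04 ± 0.236 FPKM in Control-siRNA+Mix against 0.951 ± 0.0618 in Control-siRNA (1.05, adjusted p = 0.00457). CASP1, which cuts IL-1β and IL-18, was near the threshold (0.88, adjusted p = 0.0236 under PHGDH siRNA and 0.74, adjusted p = 0.0469 under control siRNA). The CASP1 call was lost in both arms without the filter, by voom and when scaled to total reads. Under control siRNA it was also lost without any of the 6 control libraries in turn, at adjusted p of 0.0608 to 0.153. Under PHGDH siRNA it was also lost without replicate 1 or 3 of PHGDH-siRNA, or replicate 2 or 3 of PHGDH-siRNA+Mix. In the fit of the 2 PHGDH-siRNA groups alone CTSS was the 1 gene of the list still called, where 1.81% of all genes were. Without the replicate 2 pair 7 were called up under PHGDH siRNA and 6 under control siRNA, where 8.26% and 11.1% of all genes were. The 7 include NLRP3, which passed the filter through PHGDH-siRNA+Mix alone. Both counts include NLRP10, which passed through the groups with mix alone. The filter thus set the direction of these changes. The neutrophil proteases ELANE, PRTN3 and CTSG were below the filter.

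Of 16 signalling genes, 15 were tested, and IRAK2, a kinase of the MyD88 complex, rose with mix under PHGDH siRNA (1.89, adjusted p = 0.000172) and under control siRNA (1.97, adjusted p = 9.55e-05). RELA, an NF-κB subunit, was called under control siRNA (0.57, adjusted p = 0.0474), not under PHGDH siRNA, and its difference between arms was not called. The counts of 1 and 2 of 15 are close to the background of 5.22% and 5.62% upward. With the replicate block in the PHGDH-siRNA arm RELA was called there too (0.48, adjusted p = 0.0130), among 5 signalling genes up and 1 down, in the fit that called 22.5% of all genes. Without the replicate 2 pair 2 signalling genes were called up under PHGDH siRNA and 4 under control siRNA, where 8.26% and 11.1% of all genes were. The RELA call under control siRNA was lost with a replicate block in both arms (adjusted p = 0.0735), with no low genes filtered out (adjusted p = 0.116) and without any single library of the control arm, at adjusted p of 0.0526 to 0.149. All 12 known targets of these cytokines in keratinocytes rose with mix in both arms, where 5.22% of all genes rose under PHGDH siRNA and 5.62% under control siRNA. Their median change was 2.15 under PHGDH siRNA and 3.40 under control siRNA, against 0.00 for all genes in both. CSF3, CCL20, DEFB4A and CXCL2 passed the filter through the groups with mix alone, so the filter set the direction of their change. All 12 were also called in both arms without the replicate 2 pair, where 8.26% of all genes rose under PHGDH siRNA and 11.1% under control siRNA. In the fit of the 2 PHGDH-siRNA groups alone, however, 6 of the 12 calls were lost, where 1.81% of all genes were called. Under PHGDH siRNA 10 were called with no low genes filtered out, where 1.46% of all genes rose. Leaving out single libraries of that arm gave 10 to 12, where 2.79% to 6.26% of all genes rose. CSF3, a neutrophil growth factor, averaged 29.8 ± 9.67 FPKM in PHGDH-siRNA+Mix against 0.0503 ± 0.0484 in PHGDH-siRNA (4.83). It averaged 46.5 ± 4.57 FPKM in Control-siRNA+Mix against 0.0166 ± 0.0288 in Control-siRNA (5.54). NFKBIZ, which encodes the IκBζ cofactor used by IL-36 signalling, averaged 11.3 ± 1.74 FPKM in PHGDH-siRNA+Mix against 2.38 ± 0.0813 in PHGDH-siRNA (1.85, adjusted p = 1.24e-05), and 15 ± 0.635 FPKM in Control-siRNA+Mix against 2.09 ± 0.402 in Control-siRNA (2.38, adjusted p = 1.08e-06). The neutrophil chemokine CXCL1 averaged 173 ± 58.5 FPKM in PHGDH-siRNA+Mix against 301 ± 17.0 in Control-siRNA+Mix (-0.85, adjusted p = 0.603), the opposite sign to IL36G in that comparison. The interaction estimate was below 0 for 12 of the 12 targets (median -0.77, against -0.004 for all genes) and none was called. The count was 11 by voom and without the replicate 2 pair, and 10 without replicate 2 of PHGDH-siRNA+Mix. All 12 share the same libraries, so the count is a description only. No gene of these lists was called between the siRNA arms with all libraries. Without the replicate 2 pair CXCL8 was called up without mix, and CXCL8 and IL1R2 up and CAPN2 down in the average over mix. That fit called 0.696% of all genes without mix and 3.39% in the average. These target genes also answer to other NF-κB stimuli, and no link between them and the family was tested.

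Likeness of pattern was measured as the root-mean-square distance between log2(FPKM + 1) values over the 12 libraries after centring each gene. No gene of 12155 compared was closer to IL1A than IL1B was (distance 0.39). Among other genes, C1S (0.44), GZMB (0.50) and ICAM1 (0.54) were nearest to IL1A, and ICAM1 (0.30), MMP10 (0.36) and GZMB (0.40) to IL1B. IL36G had no neighbour as close, with CYP27B1 at 0.69, IL1A at 0.77, IL1R2 at 0.78 and STOM at 0.78. For IL18, IL1RN and IL36RN the nearest genes were E2F5 (0.14), AP001324.1 (0.13) and CDC37L1 (0.11). The own spread of these 3 was 0.28 to 0.30, so small distances were common there: 548 genes were closer to IL18 than IL36RN was. All distances share the same libraries and are a description only.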

How the data were processed

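RNA of 12 HaCaT samples was sequenced, and all 12 sample columns of the deposited table were used. Per the submitters' processing notes, build hg38 and the tools HISAT2 2.0.5, CASAVA and featureCounts 1.5.0-p3 were used, with no role or setting given. The table holds FPKM made by the authors. Median-ratio scaling factors of the deposited FPKM were equal in all libraries (1.01), so the values already carry a common scale whose formula is not given in the sources used here. FPKM times gene length came in whole steps (100% within 0.05 reads, up to 200 reads), which gave recovered reads. The 9 genes had the same coordinates in GENCODE 29.

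The limma package (3.58.1, R 4.3.3; trend and robust options) was fitted to log2(FPKM + 1) of all 12 libraries, with a mean per group and 8 residual degrees of freedom. Two-sided p-values of the 6 comparisons received a Benjamini-Hochberg adjustment across 14577 genes (a mean of 0.5 FPKM or more in a group). With 3 libraries a group, 0.1 is the smallest p of an exact two-sided permutation test. The script was tested on simulated data. Low genes are limited by counting error, which the Poisson intervals cover alone.

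The family genes and lists were chosen with earlier results of these data known, so no list is independent evidence. All 9 family genes are named, with up to 4 called genes per list by adjusted p. CASP1, RELA and IL1RL2 were added after their values were seen. So were the neutrophil proteases, genes named only under an alternative and genes named for how they passed the filter. Labels share replicate numbers. Deviations of same-numbered libraries correlated above 0.1 in 5 of 18 pairs, and in all 3 pairs of the PHGDH-siRNA arm (0.690, 0.775 and 0.459), so a block in that arm is given beside results whose call it changes. Figures were drawn with matplotlib 3.10.9.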

Additional observations from a re-analysis of the deposited data

How the results depend on the processing

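The calls of IL1A, IL1B and IL36G with mix held under every alternative tried in both arms, with the exception of IL1B in the fit of the 2 PHGDH-siRNA groups alone (adjusted p = 0.0514). The alternative of median-ratio scaling divided every library by the same factor, so it could hardly change a call and is no check. The count of family genes called for the siRNA contrast averaged over mix was 1, and became 0 without the filter on low values, with a replicate block and with same-numbered libraries averaged, and 2 without replicate 2 of both PHGDH-siRNA arms. Leaving out single libraries gave 0 to 2. Without that pair the count with mix between the siRNA arms was 1 in place of 0. Signs changed for small estimates. IL36G in the interaction was 0.07, and -1.17 with a pseudocount of 0.1, -1.69 by voom and -0.28 to 0.56 without single libraries. IL18 with mix under PHGDH siRNA was 0.00, -0.086 scaled to total reads, -0.087 by voom, and -0.11 to 0.17 without single libraries. Between the siRNA arms with mix, IL1A was 0.13 and IL1B 0.29 without the replicate 2 pair, with ranges over single libraries of -0.51 to 0.13 and -0.88 to 0.29. IL1RN between the siRNA arms without mix was -0.34 to 0.12, and IL1B averaged over mix -0.19 to 0.39. In reads in place of FPKM, the agonist to antagonist ratio of the IL-1 genes was 46.1 in Control-siRNA+Mix and 1.86 in Control-siRNA, and that of the IL-36 genes 20.7 in PHGDH-siRNA+Mix and 14.9 in Control-siRNA+Mix. In PHGDH-siRNA the IL-36 ratio was 1.76 by FPKM and 0.738 by reads (0.513, 1.38 and 0.316), so by reads the antagonist led in 2 of 3 libraries.

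Over all genes, with mix against no mix, 761 rose and 530 fell under PHGDH siRNA and 819 and 572 under control siRNA. Scaled to total reads, an alternative added after seeing the data, these were 618 and 852, and 708 and 780. By voom they were 643 and 860, and 736 and 788, with a median of all genes of -0.10 under PHGDH siRNA. The fits of 2 groups alone called 254 genes under PHGDH siRNA, 2690 under control siRNA and 0 between the siRNA arms. Without the filter on low values, 761, 939, 5, 1, 5 and 14 genes were called (mix under PHGDH siRNA, mix under control siRNA, siRNA with mix, siRNA without mix, interaction, average), against 1291, 1391, 3, 6, 0 and 71. Without the replicate 2 pair they were 2190, 3023, 55, 101, 0 and 492. A replicate block called 0 genes in both siRNA comparisons and 39 in their average, and the block in the PHGDH-siRNA arm alone called 3284 for mix. Leaving out single libraries gave 665 to 1644, 658 to 1223, 0 to 6, 0 to 4, 0 and 2 to 96 genes. Beyond IL36RN in the average and IL1RN under PHGDH siRNA, the blocks changed no call of a family gene. Depth limits IL36A, IL36B and IL33, which lay under the filter. With no filter IL36B was called with mix under PHGDH siRNA (0.39, adjusted p = 0.0391) and not under control siRNA (0.33, adjusted p = 0.0741), and IL33 in neither (adjusted p = 0.345 and 0.347). Another choice among several identifiers was not run, since each symbol had 1.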

Other observations

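Within a library, IL36G was set against IL1A after the values were seen, and this is a description with no test. The FPKM ratio of IL36G to IL1A was 0.300, 0.322 and 0.389 in PHGDH-siRNA+Mix against 0.128, 0.104 and 0.118 in Control-siRNA+Mix, so replicate 2 of PHGDH-siRNA+Mix, low for both genes, lay between the others of its group. Without mix the ratio was 0.0557, 0.312 and 0.0648 in PHGDH-siRNA against 0.0312, 0.0619 and 0.00495 in Control-siRNA, where replicate 2 of PHGDH-siRNA was far above its group and the third Control-siRNA value rests on few IL36G reads. The ratio of IL1B to IL1A averaged 1.18 ± 0.412 in PHGDH-siRNA+Mix and 1.27 ± 0.0432 in Control-siRNA+Mix (SD, n = 3 each).

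The promoter windows of family genes whose levels stayed flat or low were also searched. The IL1RN window held 4 κB matches and 1 AP-1 match, the IL36A and IL36RN windows 1 κB match each, and the IL33 window 1 STAT match. The κB letters occurred in 58.7% of all 35116 windows. The IL1RN window is 1 of 3 listed for that gene, and its start site lies 10757 bases from the start of the gene in the table. A match is a description of letters in these windows and no measure of binding. HMGN2P23, the pseudogene inside IL36G, averaged 0.590 FPKM in PHGDH-siRNA+Mix against 0 in PHGDH-siRNA, and 0.136 FPKM in Control-siRNA+Mix against 0 in Control-siRNA. It passed the filter through PHGDH-siRNA+Mix alone, so no test is given.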
